A study of Mus musculus with 26 samples.

Results

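Vehicle-treated mouse intestinal organoids were compared between day 3 and day 1, to describe how their transcripts changed over 2 days of culture with no lipid added. The comparison rests on 3 libraries from day 3 and 3 from day 1, 6 of the 26 libraries of a study that also used 25 µM of the lipid arachidonic acid (AA) or 50 nM of its product prostaglandin E2 (PGE2) on other organoids; the design text names a dimethyl analogue of PGE2, so PGE2 here stands for either. The libraries were chosen by their labels (vehicle, day 3 or day 1), so no measured value entered the choice. Both groups were organoids from crypts of C57BL/6 mice, embedded in Matrigel, with medium holding EGF (40 ng/ml), Noggin (50 ng/ml), R-spondin (62.5 ng/ml), N-acetyl-L-cysteine (1 µM), CHIR-99021 (5 µM), Y-27632 (20 ng/ml), B27 and N2. CHIR-99021 switches on Wnt signalling by inhibiting the kinase GSK3. Day 3 and day 1 groups shared these agents, and the labels give neither the vehicle itself, the age of the mice nor the days in culture before vehicle was added. They do not say whether the replicates came from separate mice or cultures, so each p-value measures only the spread between libraries, which may be technical. That spread was estimated over all 18 libraries of days 1 and 3, those of AA and PGE2 included.

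The intestinal crypt holds Lgr5-positive stem cells at its base, kept by Wnt and R-spondin signals, beside Paneth cells that secrete lysozyme and defensins. Dividing progenitors leave the base and become absorptive enterocytes or secretory goblet, enteroendocrine, tuft and Paneth cells, and organoids grown from crypts form these types in culture. Cells short of oxygen stabilise hypoxia-inducible factor, a transcription factor that raises glucose uptake, glycolysis and lactate export.

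Between 1.01e+07 and 1.35e+07 reads were counted per day 3 library, and between 1.29e+07 and 1.41e+07 per day 1 library. Mitochondrial ribosomal RNA took 6.74 to 8.84% of the reads on day 3 and 9.15 to 10.3% on day 1. Levels below are CPM, read counts divided by library totals that were scaled between libraries by TMM, with no correction for gene length, so they compare 1 gene across libraries and not one gene with another. The epithelial adhesion genes Epcam, with 579 ± 49 CPM on day 3 and 612 ± 43 CPM on day 1, and Cdh1, with 880 ± 39 CPM on day 3 and 889 ± 14 CPM on day 1 (SD, n = 3 each), marked both groups as epithelium. Markers of other tissues were near 0: summed over their lists, 13 immune markers reached 0.505 to 1.06 CPM on day 3 and 0.384 to 1.00 CPM on day 1, with no read for Cd4, Cd8a, Ms4a1 and Nkg7. The 12 endothelial and neural markers summed to 4.69 to 5.98 CPM on day 3 and 3.79 to 4.77 CPM on day 1, with no read for Cdh5, Kdr, Emcn and Sox10. Day 3 replicate 2 stood apart from its group: the first principal component separated the days (57.3% of the variance), and the second (18.1%) put this library at -27.6, against 16.6 and 21.4 for the other day 3 libraries. It gave 0.398% of its reads to provisional gene models (the TEC class of the gene annotation), against 0.218% in each of the other day 3 libraries and 0.173 to 0.204% on day 1. The main counts are therefore given with and without it.

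About as many genes were higher as lower on day 3, but 2-fold changes were mostly rises, and falls lay mostly in abundant genes. Of 14850 genes that passed the expression filter, 5982 (40.3%) were called at an adjusted p under 0.05 in edgeR's quasi-likelihood test, 2943 higher (19.8%) and 3039 lower (20.5%) on day 3. Without day 3 replicate 2 there were 5141 calls, 2478 higher and 2663 lower. Leaving out day 1 replicate 3 instead gave fewer, 4973 calls, 2454 higher and 2519 lower. Scaling by total counts alone turned the split to 3726 higher and 2042 lower. At least a 2-fold change with a call was seen for 725 genes higher (4.88%) and 43 lower (0.290%), and the median log2 fold change of all tested genes was 0.04. For 7059 genes (47.5%) the 3 day 3 libraries all lay on one side of the 3 day 1 libraries. Among genes averaging under 3 CPM, 749 rose and 59 fell, against 952 that rose and 2264 that fell among genes at 30 CPM and over. Without day 3 replicate 2, 595 rose and 59 fell in the low class, and 807 rose and 2018 fell in the high class. Of 826 TEC models, 139 rose and 0 fell, but 45 rose and 12 fell without that library, so this class depended on it. Of 12289 protein-coding genes, 2541 rose and 2976 fell. The shares over all tested genes, 19.8% higher and 20.5% lower, are the background for each count of list or family members below. The lists and families were chosen with earlier results of these data known, so these counts are descriptions and not tests.

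**Figure D1:**
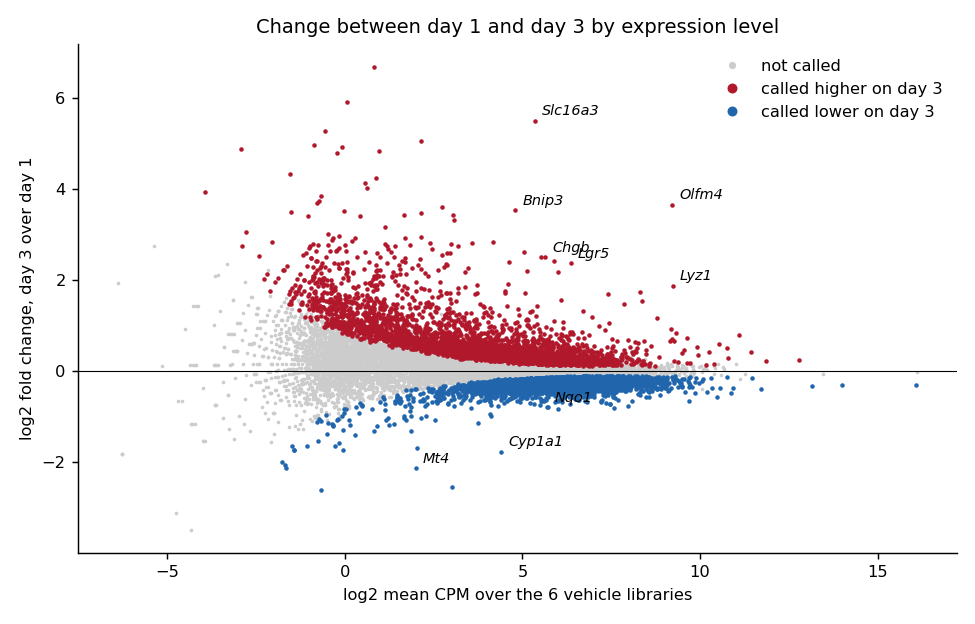
Each point is a gene, with its log2 mean CPM over the 6 vehicle libraries on the x axis and its log2 fold change, day 3 over day 1, on the y axis. Called genes spread further above 0 (725 at least 2-fold higher) than below it (43 at least 2-fold lower), and the upward spread is widest among genes with low levels.

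The monocarboxylate transporter Slc16a3, which exports lactate from glycolytic cells, had the largest rise among called genes whose log2 CPM averaged 1 or more. Slc16a3 (ENSMUSG00000025161.16) had 99.6, 71.2 and 70.1 CPM in the day 3 libraries, against 2.36, 1.84 and 1.09 CPM in the day 1 libraries. The log2 fold change was 5.49 ± 0.30 (SE, adjusted p = 1.65e-08). Bnip3 (ENSMUSG00000078566.8), a receptor for the removal of mitochondria, had 61.6, 45.6 and 46.9 CPM on day 3, against 4.50, 4.07 and 4.84 CPM on day 1, a log2 fold change of 3.53 ± 0.20 (adjusted p = 2.31e-09). Ankrd37 (ENSMUSG00000050914.16), an ankyrin-repeat protein and known target of hypoxia-inducible factor, had 17.9, 14.2 and 13.7 CPM on day 3, against 0.929, 1.92 and 1.80 CPM on day 1 (log2 fold change 3.32 ± 0.23). P4ha1 (ENSMUSG00000019916.14), the catalytic subunit of collagen prolyl hydroxylase, had 37.0, 27.2 and 30.1 CPM on day 3, against 3.71, 4.54 and 5.00 CPM on day 1 (log2 fold change 2.84 ± 0.16). In each of these genes replicate 1 was the highest day 3 library. The rule that picked these genes required that the days did not overlap, so the gap is no separate result.

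Slc16a3 was taken with the members of the glycolysis and hypoxia list that rose most among those with a promoter. The cause of their rise was not tested. Hypoxia-inducible factor is known to bind near the start of such genes. The 250 bases before the transcription starts of these 4 genes are shown, from RefSeq on build GRCm38.p6. They lie at chr11:120948817-120949066 (+ strand) for Slc16a3, chr7:138909507-138909756 (- strand) for Bnip3, chr8:45999851-46000100 (- strand) for Ankrd37 and chr10:59323046-59323295 (+ strand) for P4ha1, each read 5′ to 3′ on the strand of its gene and ending 1 base before the start. Capitals mark ACGTG, the core of many hypoxia response elements, on either strand (CACGT on the other strand). In Bnip3 the match is CACGTG, which reads the same on both strands and is also an E-box, the site of basic helix-loop-helix factors such as Myc.
Slc16a3: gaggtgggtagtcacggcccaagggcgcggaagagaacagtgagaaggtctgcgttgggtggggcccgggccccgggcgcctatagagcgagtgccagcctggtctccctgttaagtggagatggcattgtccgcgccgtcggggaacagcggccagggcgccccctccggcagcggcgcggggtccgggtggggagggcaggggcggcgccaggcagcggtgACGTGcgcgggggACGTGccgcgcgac
Bnip3: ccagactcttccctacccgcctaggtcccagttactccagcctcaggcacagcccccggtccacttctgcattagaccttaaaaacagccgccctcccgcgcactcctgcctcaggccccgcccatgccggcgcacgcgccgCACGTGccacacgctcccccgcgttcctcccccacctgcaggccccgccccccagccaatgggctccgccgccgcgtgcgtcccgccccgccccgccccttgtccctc
Ankrd37: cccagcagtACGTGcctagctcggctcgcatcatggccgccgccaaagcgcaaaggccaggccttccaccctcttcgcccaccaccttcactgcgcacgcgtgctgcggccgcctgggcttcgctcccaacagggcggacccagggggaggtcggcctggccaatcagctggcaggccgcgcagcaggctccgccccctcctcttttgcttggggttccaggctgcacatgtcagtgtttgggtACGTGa
P4ha1: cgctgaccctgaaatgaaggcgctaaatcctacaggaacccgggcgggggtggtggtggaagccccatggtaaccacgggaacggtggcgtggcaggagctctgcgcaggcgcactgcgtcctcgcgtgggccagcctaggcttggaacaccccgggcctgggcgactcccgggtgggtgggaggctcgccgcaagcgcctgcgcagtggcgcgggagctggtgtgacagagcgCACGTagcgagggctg

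The motif began 27 and 14 bases before the start in Slc16a3, 108 and 107 bases before it in Bnip3 (the overlapping match on both strands), 241 and 6 bases before it in Ankrd37 and 16 bases before it in P4ha1. Of the 24 called members of the glycolysis and hypoxia list, 23 had a promoter in the table, and 11 of these (47.8%) held the motif in the same window. It was held by 21.8% of the 10173 tested genes with a promoter, by 19.5% of the 461 with a promoter among genes at least 2-fold higher on day 3, and by 16.6% of all 27025 promoters. The list was drawn up from known glycolysis and hypoxia genes, with earlier results of these data known, so its share is no result about these organoids. Such a match is a description of the letters and does not show binding.

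The rise ran through the whole glycolysis and hypoxia list, which holds Bnip3, Ankrd37 and P4ha1 but not Slc16a3. All 24 tested members of 25 listed were called higher on day 3, with and without day 3 replicate 2, against a background of 19.8%. Their median log2 fold change was 0.84, against 0.04 over all genes, and 9 rose at least 2-fold. The list was drawn up with earlier results of these data known, so its count is a description and not a test. At the entry of the pathway, the glucose transporter Slc2a1 had 145, 119 and 128 CPM on day 3, against 71.0, 70.1 and 75.5 CPM on day 1 (log2 fold change 0.86 ± 0.06, adjusted p = 4.13e-12). Pfkfb3, which makes the sugar bisphosphate that activates phosphofructokinase, had 66.8, 55.8 and 50.0 CPM on day 3, against 12.6, 13.1 and 12.5 CPM on day 1 (2.19 ± 0.09). Among the enzymes of the pathway itself, log2 fold changes were 1.05 for Pfkl, 0.92 for Gpi1, 0.71 for Hk2, 0.70 for Eno1, 0.52 for Ldha and 0.36 for Gapdh. Outside the pathway's enzymes, Egln3, an oxygen-sensing hydroxylase that marks hypoxia-inducible factor for destruction, averaged 77.5 ± 16.4 CPM on day 3 and 13.8 ± 1.2 CPM on day 1 (SD, n = 3 each), a log2 fold change of 2.50. Pdk1, a kinase that inhibits pyruvate dehydrogenase, had a log2 fold change of 1.18 and the stress gene Ndrg1 one of 1.69. The secreted peptide Adm had one of 2.80, the angiogenic factor Vegfa one of 0.81 and the carbonic anhydrase Car9 one of 0.86. Egln3, Pdk1, Ndrg1, Adm, Vegfa, Car9, Eno1, Ldha and Gapdh were chosen for naming after their values were seen.

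**Figure D2:**
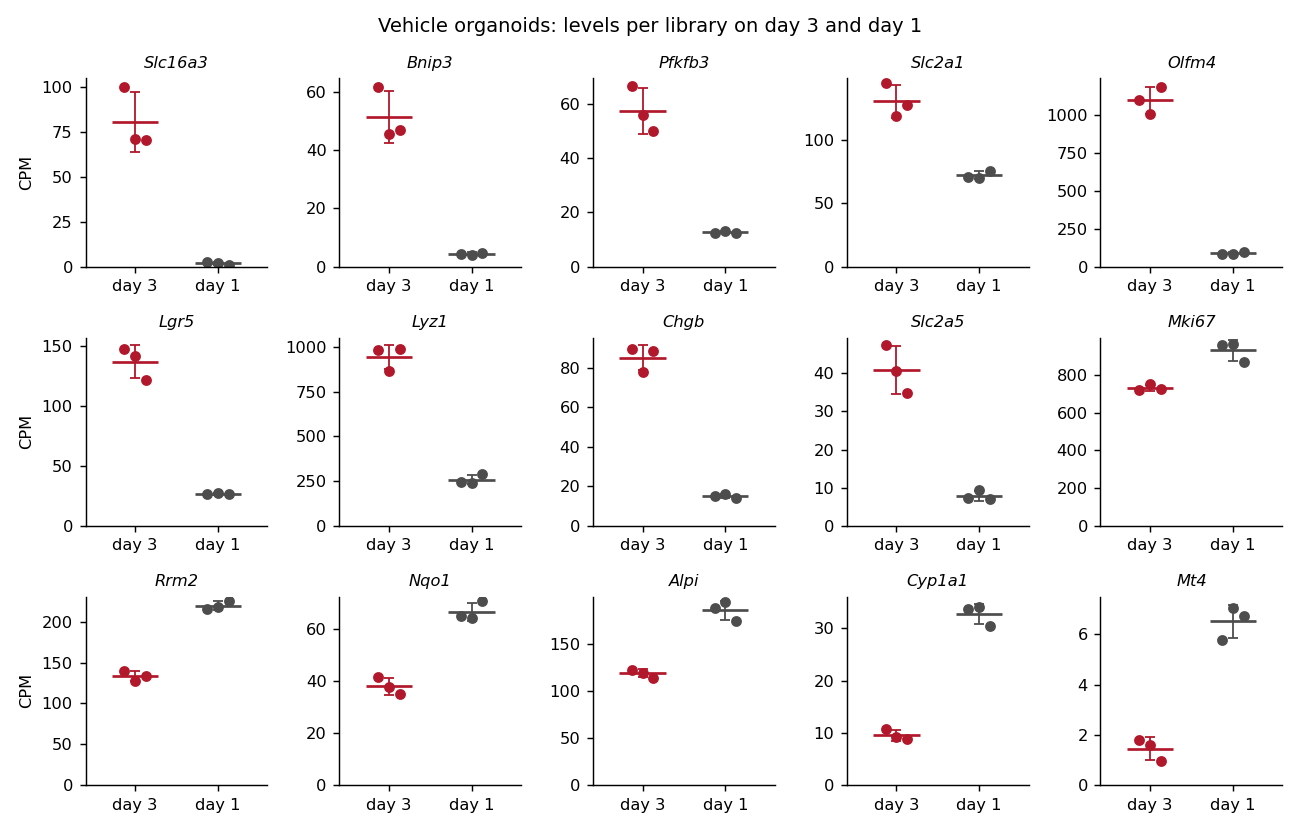
CPM of 15 genes in each vehicle library, day 3 at the left and day 1 at the right of each panel; dots are libraries, lines are means and bars are SD (n = 3). The days do not overlap in any panel, with Slc16a3 at 70.1 CPM or more on day 3 and at 2.36 CPM or less on day 1. All 15 genes were called and some were picked by a rule that required no overlap, so the gap is no separate result.

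Crypt base stem cell genes rose, led by 2 of its best known markers. Olfm4 (ENSMUSG00000022026.7), a secreted glycoprotein of crypt base cells, had 1100, 1011 and 1189 CPM on day 3, against 82.3, 85.2 and 95.7 CPM on day 1, a log2 fold change of 3.65 ± 0.10 (adjusted p = 5.28e-14). Lgr5 (ENSMUSG00000020140.15), which binds R-spondin and defines these cells, had 148, 142 and 122 CPM on day 3, against 26.4, 27.4 and 26.2 CPM on day 1, a log2 fold change of 2.36 ± 0.09 (adjusted p = 2.42e-15). Both genes were tight within each day. In all, 14 of 23 tested members were higher and 2 lower (14 and 2 without day 3 replicate 2), with a median log2 fold change of 0.31. Over all genes 19.8% were higher and 20.5% lower. Tnfrsf19, a receptor of the tumour necrosis factor family, rose by 1.84, and Igfbp4, which binds insulin-like growth factors, by 1.37 on the log2 scale. Smaller rises were seen for the BMP co-receptor Rgmb (0.54) and the Wnt feedback gene Axin2 (0.47). The stem cell transcription factor Ascl2 had 16.2 CPM on day 3 and 15.9 CPM on day 1 (log2 fold change 0.03, adjusted p = 0.862), and Sox9 had 104 CPM on day 3 and 96.8 CPM on day 1 (0.09, adjusted p = 0.247). Ascl2 and Sox9 were chosen after their values were seen. In bulk RNA, more cells of a type and more RNA per cell cannot be told apart, here and below.

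The Wnt lists were mixed, beside 19.8% higher and 20.5% lower over all genes. Of 13 tested Wnt targets and feedback genes, 5 were higher and 4 lower (6 and 2 under scaling by total counts). Nkd1, an antagonist of the pathway, had 2.38, 1.86 and 3.37 CPM on day 3, against 0.50, 0.384 and 0.313 CPM on day 1 (log2 fold change 2.62 ± 0.37), and the transcription factors Prox1 (1.40) and Tcf7 (0.57) also rose. The growth genes Myc and Ccnd1 each fell by 0.26 on the log2 scale. Among 14 ligands and receptors, 7 were higher and 1 lower: the receptors Fzd2 (1.57), Fzd1 (1.56) and Fzd7 (0.35), the ligand Wnt3 (0.48), and Porcn (1.23) and Wls (0.68), which lipidate and carry Wnt ligands, all rose; the Wnt3 call was lost without day 3 replicate 1. Of 14 Notch genes, 2 were higher and 3 lower, near the shares over all genes. The target Hes1 was at 0.23 and the ligand Dll1 at -0.20. Both calls were lost without day 3 replicate 3, and that of Dll1 also under total counts. Of 18 BMP and TGF-beta genes 7 were higher and 0 lower, among them the ligands Bmp2 (0.99) and Bmp7 (0.68). Of 22 genes of the EGF family and its feedback 11 were higher and 1 lower, with the phosphatases Dusp6 (0.57) and Dusp4 (0.51) and the receptor Erbb3 (0.31) higher.

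Paneth cell genes showed the broadest rise of the cell type lists: 20 of 22 tested members were higher and 1 lower, the same counts without day 3 replicate 2. Over all genes 19.8% were higher and 20.5% lower. The median log2 fold change of the list was 2.02, and 18 members were at least 2-fold higher. Lyz1 (ENSMUSG00000069515.6), the Paneth lysozyme, had 984, 867 and 988 CPM on day 3, against 248, 242 and 287 CPM on day 1 (log2 fold change 1.87 ± 0.08, adjusted p = 9.53e-14). The alpha-defensins are short antimicrobial peptides packed in Paneth granules. Of 22 alpha-defensin symbols in the table, 13 passed the filter and each was called at least 2-fold higher. Genes that passed only because they were high on day 3 had to differ. These near-identical copies can share reads, so single values are uncertain. Many of them are also members of the Paneth list, so its counts, median and rank lean on copies that are not separate evidence. Defa30 had 106, 92.5 and 114 CPM on day 3, against 22.5, 21.4 and 25.1 CPM on day 1 (2.18 ± 0.09), and Defa24 had 502, 432 and 525 CPM on day 3, against 138, 137 and 163 CPM on day 1 (1.74 ± 0.12). Mmp7, the protease that activates the defensins, rose by 1.42 on the log2 scale. Pla2g2a, of the phospholipase family but annotated as a polymorphic pseudogene, rose by 2.18. Its value rests on 153 reads over the day 3 libraries and 37 over the day 1 libraries, and does not show that an enzyme is made.

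Enteroendocrine cells release gut hormones, and 19 of 23 tested members of their list were higher and 1 lower, again unchanged in number without day 3 replicate 2; the median log2 fold change was 1.34. Chgb, a granin of hormone granules, had 89.3, 78.1 and 88.4 CPM on day 3, against 14.9, 16.0 and 14.2 CPM on day 1 (2.50 ± 0.10, adjusted p = 3.46e-15). The related granin Chga rose by 1.89, Tac1, which encodes substance P, by 2.54, Tph1, the rate-limiting enzyme of serotonin synthesis in the gut, by 2.75, Ghrl (ghrelin) by 1.88 and Gip (glucose-dependent insulinotropic peptide) by 1.38 on the log2 scale. The early endocrine factor Neurog3 had 14.8, 12.8 and 17.7 CPM on day 3, against 15.9, 16.2 and 20.7 CPM on day 1, so the days overlapped (-0.22 ± 0.14, adjusted p = 0.213). Insm1, another early factor, fell by 0.56; it was chosen after its values were seen.

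Goblet cell genes followed with 12 of 17 tested members higher and 1 lower (11 and 1 without day 3 replicate 2; median 0.65). Spink4, a secreted protease inhibitor, had 104, 96.7 and 106 CPM on day 3, against 33.9, 32.5 and 37.3 CPM on day 1 (1.56 ± 0.09). Clca3b rose by 0.82. The mucin Muc2 had 16.3, 20.4 and 13.4 CPM on day 3, against 8.14, 7.61 and 10.2 CPM on day 1 (0.96 ± 0.26, adjusted p = 0.0107), and this call was lost without day 3 replicate 2. Tuft cell genes were scarce: 7 of 18 passed the filter and their summed level was 9.65 to 11.3 CPM on day 3 and 5.23 to 7.34 CPM on day 1. Of these, Pou2f3, Avil and Ptgs1 were called higher, and each of these calls was lost in at least 5 alternatives. Atoh1, the factor that sets the secretory fate, had a log2 fold change of 0.27 ± 0.15 (adjusted p = 0.146).

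**Figure D3:**
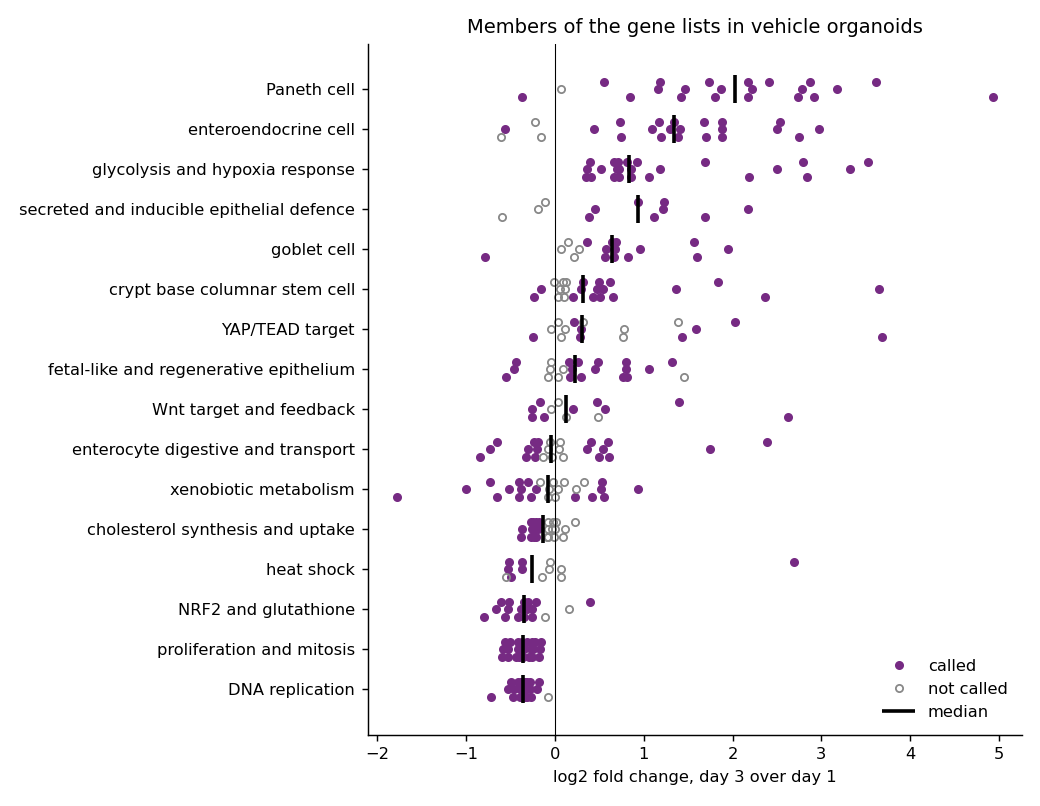
Log2 fold change, day 3 over day 1, of each tested member of 16 gene lists; filled dots passed the test, open dots did not, and black lines are medians. Paneth (median 2.02), enteroendocrine (1.34) and glycolysis and hypoxia members (0.84) lie to the right, and proliferation, DNA replication and NRF2 members lie mostly between 0 and -1.

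Enterocyte genes had no common direction, with 8 of 24 higher and 9 lower, beside 19.8% higher and 20.5% lower over all genes. Their median was -0.04, which scaling by total counts moved to 0.02. Slc2a5, the fructose transporter, had 47.4, 40.5 and 34.9 CPM on day 3, against 7.21, 9.38 and 6.95 CPM on day 1 (2.39 ± 0.15, adjusted p = 2.96e-10). Lactase (Lct), chosen after its values were seen, averaged 35.4 ± 2.4 CPM on day 3 and 10.6 ± 0.7 CPM on day 1 (SD, n = 3 each), and sucrase-isomaltase (Sis) rose by 0.54 and Dpp4, a brush border peptidase, by 0.49 on the log2 scale. Other markers of mature villus cells were lower: the alkaline phosphatase Alpi had 122, 119 and 114 CPM on day 3, against 188, 194 and 174 CPM on day 1 (-0.65 ± 0.07, adjusted p = 4.09e-07). The protease Mep1b had a log2 fold change of -0.85 and the keratin Krt20 one of -0.74. Lipid absorption genes were likewise split, 5 of 18 higher and 4 lower, with the apolipoprotein Apoa4 at 0.50 and the enzyme Mogat2 at -0.62, while Apoa1 had 73.7 CPM on day 3 and 73.4 CPM on day 1 (0.00, adjusted p = 0.962). Of 26 regional and transcription factor genes 7 were higher and 4 lower (4 and 4 without day 3 replicate 2): the vitamin D receptor Vdr was at 0.53, the homeobox factor Cdx1 at -0.49 and Anxa10 at -0.65.

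Cell division genes fell by a small but regular amount. All 24 genes of the proliferation and mitosis list were lower (23 without day 3 replicate 2, 21 under scaling by total counts). Their median log2 fold change was -0.36. Over all genes 20.5% were lower, but falls were commoner among abundant genes, with 2264 of 6086 lower at 30 CPM and over. Mki67, Aurka and Cdc20, named below, lie in that abundant class. Mki67, a marker of cycling cells, had 721, 752 and 728 CPM on day 3, against 961, 965 and 869 CPM on day 1 (-0.34 ± 0.06, adjusted p = 2.16e-05). The mitotic kinase Aurka had a log2 fold change of -0.58 and the anaphase activator Cdc20 one of -0.57. Of 25 DNA replication genes 24 were lower and 0 higher (25 lower without day 3 replicate 2, 22 under total counts). Rrm2, a subunit of the enzyme that makes deoxynucleotides, led the list with 139, 128 and 134 CPM on day 3, against 216, 219 and 226 CPM on day 1 (-0.72 ± 0.04, adjusted p = 3.58e-13), and the helicase subunits Mcm3 and Mcm5 were at -0.50 and -0.47. Of 57 histone cluster genes 22 were lower and 0 higher, but 13 were lower without day 3 replicate 2. Of 16 genes that control entry into the cycle 3 were higher and 7 lower, with the cyclin Ccnd2 at -0.23.

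Large protein families of biosynthesis and turnover fell in the same manner. The background was 20.5% lower over all genes, and 2264 lower of 6086 genes at 30 CPM and over. Of 77 tested mitochondrial ribosomal proteins 65 were lower and 0 higher (58 lower without day 3 replicate 2), with a median log2 fold change of -0.34 and Mrpl16 at -0.50. Of 37 proteasome subunits 33 were lower and 0 higher (30 lower without that library), with a median of -0.32. Of 34 aminoacyl-tRNA synthetases 22 were lower and 0 higher, led by Yars at -0.54 and Mars at -0.50, and of 37 nuclear subunits of respiratory complex I 21 were lower and 1 higher. Mitochondrially encoded messenger RNAs had a median of -0.28, with 2 of 10 called, mt-Nd1 (-0.40) and mt-Co1 (-0.33). These falls accompany the lower share of mitochondrial ribosomal RNA given above. A fit without rRNA-like and mitochondrial genes called 2943 genes higher and 3005 lower, against 2943 and 3039 in the main fit. The part of that share in the falls of these families was not tested. Cytosolic ribosomal proteins gave no settled direction: 3 of 80 were higher and 5 lower, but 22 were higher and 3 lower when libraries were scaled by total counts, and 17 higher and 2 lower without day 3 replicate 2. The elongation factors Eef1a1 and Eef2 were at 0.23 and 0.21, and these calls were lost with the 6 vehicle libraries alone.

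Genes of redox defence were mostly lower, while those of foreign compound metabolism were split. NRF2 is a transcription factor that drives antioxidant enzymes. Of 18 genes of its list and of glutathione metabolism 15 were lower and 1 higher (the same counts without day 3 replicate 2), with a median log2 fold change of -0.35. The background was 20.5% lower over all genes, and 2264 lower of 6086 genes at 30 CPM and over. The quinone reductase Nqo1 had 41.4, 37.9 and 34.9 CPM on day 3, against 64.9, 64.3 and 70.7 CPM on day 1 (-0.80 ± 0.06, adjusted p = 6.77e-11). The intestinal glutathione peroxidase Gpx2 was at -0.66, the glutathione transferase Gsta4 at -0.56 and G6pdx, the first enzyme of the pentose phosphate path, at -0.52; Hmox1, chosen after its values were seen, was the 1 member called higher (0.40). Of 26 xenobiotic genes 11 were lower and 6 higher, with a median log2 fold change of -0.07. Cyp1a1, the classic target of the aryl hydrocarbon receptor, had 10.7, 9.12 and 8.71 CPM on day 3, against 33.7, 34.1 and 30.5 CPM on day 1 (-1.77 ± 0.10, adjusted p = 1.89e-13). Its relative Cyp1b1 was at -1.0, Cyp3a13 at -0.74 and the efflux pump Abcb1a at -0.40, while Cyp2s1 was at 0.94.

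Among called genes whose log2 CPM averaged 1 or more, leaving out predicted genes, the metallothionein Mt4 fell most. Mt4 had 1.80, 1.59 and 0.937 CPM on day 3, against 5.79, 7.07 and 6.72 CPM on day 1 (-2.14 ± 0.19, adjusted p = 8.08e-10). Rbp7, which binds vitamin A, was at -1.70 and the desmosome cadherin Dsg3 at -1.32. Of 25 genes of fatty acid oxidation and ketogenesis 8 were lower and 2 higher (4 and 3 under total counts), with Cpt1a, which admits fatty acids to the mitochondrion, at -0.41 and the coactivator Ppargc1a at 1.19. Of 18 fatty acid synthesis genes 6 were higher and 6 lower. Of 24 cholesterol synthesis genes 12 were lower and 0 higher, by at most 0.38 on the log2 scale in the case of Idi1; under scaling by total counts 11 were lower and 3 higher. Of 12 heat shock genes 5 were lower and 1 higher, with the chaperones Hsph1 at -0.53 and Hspd1 at -0.49. For the cholesterol and heat shock lists the background was 20.5% lower over all genes, and 2264 lower of 6086 at 30 CPM and over. The unfolded protein and integrated stress list was split, 7 of 23 higher and 8 lower (5 and 5 without day 3 replicate 2), with Xbp1 at 0.33, Ddit4 at 0.60, Atf4 at -0.43 and Chac1 at -0.81.

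Fetal-like and regenerative genes, which mark epithelium after injury and young spheroids, were more often higher than lower. Of 22 tested 13 were higher and 3 lower (12 and 3 without day 3 replicate 2), with a median log2 fold change of 0.23. Clu, a secreted chaperone of revival stem cells, had 83.3, 78.5 and 104 CPM on day 3, against 51.6, 46.6 and 54.6 CPM on day 1 (0.80 ± 0.10, adjusted p = 2.57e-06). Ly6a, the surface protein Sca-1, had 99.8, 82.8 and 101 CPM on day 3, against 54.5, 53.3 and 58.4 CPM on day 1 (0.77 ± 0.08). Anxa1 was at 0.80, while Anxa2 (-0.46) and S100a6 (-0.55) were lower, and the growth factor Areg had 50.7 CPM on day 3 and 53.5 CPM on day 1 (-0.08, adjusted p = 0.396). Of 16 targets of the coactivator YAP 7 were higher and 1 lower. Ptpn14 had 20.6, 21.2 and 22.7 CPM on day 3, against 6.57, 8.84 and 8.44 CPM on day 1 (1.43 ± 0.10), and Arhgef17 was at 1.58, whereas the widely used target Ccn2 had 7.57, 7.08 and 7.21 CPM on day 3, against 6.64, 6.38 and 4.53 CPM on day 1 (0.31 ± 0.14, adjusted p = 0.066, but under 0.05 with total counts, the stricter filter or without day 1 replicate 1).

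The lists of the extracellular matrix differed. Of 23 basement membrane and integrin genes 9 were higher and 4 lower, with a median log2 fold change of 0.03. Of 16 proteases and matrix remodelling genes 10 were higher and 2 lower: Timp3, a protease inhibitor, had 8.29, 7.43 and 6.37 CPM on day 3, against 1.57, 0.999 and 1.41 CPM on day 1 (2.47 ± 0.19). Of 44 collagen symbols 8 passed the filter and 6 were higher, among them Col18a1 (1.24). Collagens that passed only because they were high on day 3 had to differ, so this count is no result about the family. Of 7 laminin chains 4 were higher, with Lama5 at 0.86 and Lamb3 at 0.35. Vim, the intermediate filament of mesenchymal and some migrating epithelial cells, had 4.47, 4.87 and 5.34 CPM on day 3, against 1.21, 1.31 and 0.547 CPM on day 1 (2.23 ± 0.24). The 14 fibroblast and smooth muscle markers, Vim included, summed to 6.63 to 7.12 CPM on day 3 and 1.72 to 2.77 CPM on day 1; 2 of them passed the filter, and Col3a1, Dcn, Lum and Foxl1 had no read in any vehicle library. The part of these markers in the changes of matrix genes was not tested.

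Of 11 tested genes of epithelial defence, 8 were higher, 0 lower and 3 not called, with the lectin Reg4 at 1.22, Reg1 at 1.23 and Pigr, which carries antibodies across the epithelium, at 0.45. Of 16 immediate early genes 9 were higher and 2 lower, with Jun at 0.77 and Fosl2 at 0.56. Of 13 cytokine and chemokine genes 2 were called, and of 13 interferon response genes 5, against 40.3% of all genes. In the prostanoid list, the pathway fed by AA, 4 of 13 were higher and 4 lower. The inducible synthase Ptges had 1.66, 0.796 and 0.656 CPM on day 3, against 0.143, 0.0769 and 0.234 CPM on day 1 (2.76 ± 0.52, adjusted p = 9.47e-05), and the prostaglandin-degrading enzyme Hpgd had 13.4, 8.32 and 13.8 CPM on day 3, against 15.3, 15.5 and 15.9 CPM on day 1 (-0.39 ± 0.14). The Hpgd call was lost without day 3 replicate 2, its lowest library, without any 1 of the day 1 libraries and under total counts.

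Vehicle libraries from day 6, 4 in number and deposited in a second table, extend the series as levels with no test, since day 6 was counted in its own table. These libraries stood apart: mitochondrial ribosomal RNA took 0.00545 to 0.266% of their reads and other mitochondrial RNA 3.16 to 4.64%, against 1.45 to 1.84% other mitochondrial RNA on day 3 and 1.84 to 2.13% on day 1. The part of this in the levels below was not tested. Scaled together, Slc16a3 had 1.14 to 2.46 CPM on day 1, 71.1 to 101 CPM on day 3 and 84.2 to 119 CPM on day 6. Bnip3 likewise had 4.24 to 5.02 CPM on day 1, 46.1 to 62.4 CPM on day 3 and 40.9 to 70.8 CPM on day 6. Olfm4 had 85.9 to 99.3 CPM on day 1, 1024 to 1206 CPM on day 3 and 194 to 270 CPM on day 6. Lgr5 had 27.1 to 28.5 CPM on day 1, 123 to 150 CPM on day 3 and 41.4 to 53.5 CPM on day 6. Both stem cell markers were thus highest on day 3 with no overlap between days. Among secretory genes, Defa24 had 142 to 169 CPM on day 1, 437 to 533 CPM on day 3 and 1688 to 2092 CPM on day 6, and Muc2 had 7.93 to 10.5 CPM on day 1, 13.6 to 20.7 CPM on day 3 and 142 to 160 CPM on day 6. Neurog3 had 16.5 to 21.5 CPM on day 1, 13 to 18 CPM on day 3 and 5.59 to 7.43 CPM on day 6, and Atoh1 had 6.56 to 7.37 CPM on day 1, 7.52 to 8.93 CPM on day 3 and 5.36 to 7.5 CPM on day 6. Lyz1 had 252 to 298 CPM on day 1, 877 to 1002 CPM on day 3 and 1066 to 1356 CPM on day 6. Chga had 4.94 to 6.56 CPM on day 1, 19.4 to 23.5 CPM on day 3 and 40.8 to 51 CPM on day 6. Defa24, Muc2, Lyz1 and Chga were thus lowest on day 1 and highest on day 6, while the factors Neurog3 and Atoh1 did not follow this order. Mki67 was lowest on day 3, with 901 to 1005 CPM on day 1, 730 to 761 CPM on day 3 and 1121 to 1165 CPM on day 6. Ly6a had 55.6 to 60.5 CPM on day 1, 83.7 to 102 CPM on day 3 and 2.32 to 4.11 CPM on day 6.

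**Figure D4:**
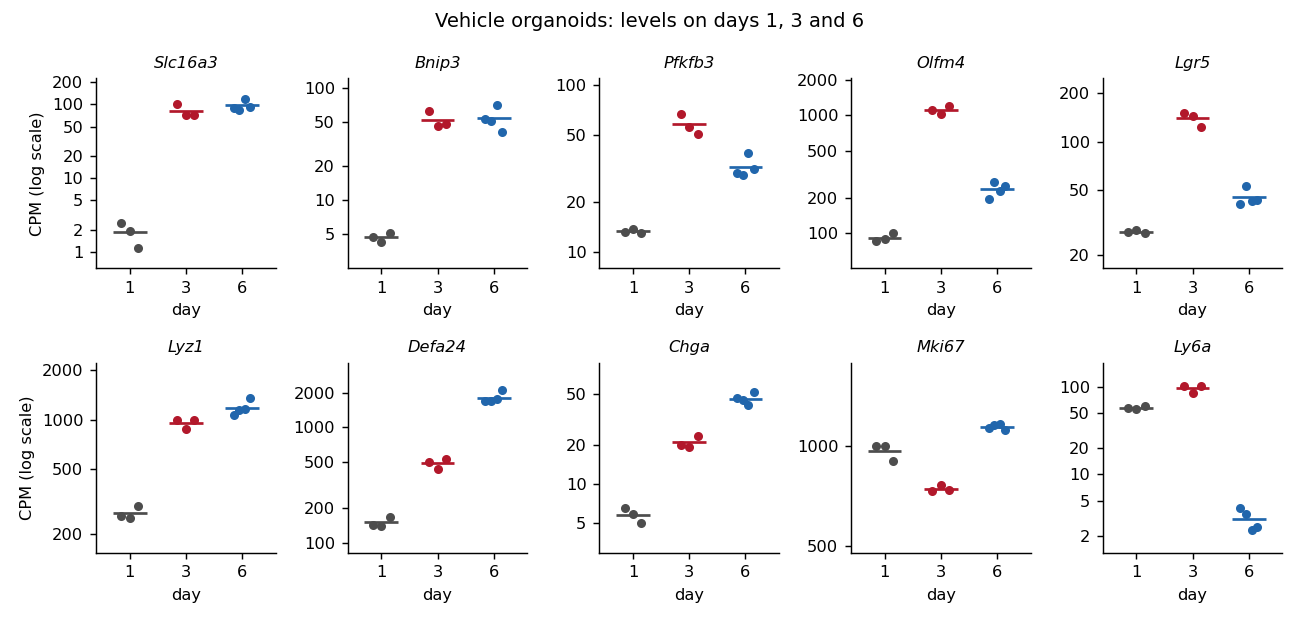
CPM on a log scale of 10 genes in the vehicle libraries of days 1, 3 and 6 (3, 3 and 4 libraries; lines are means), scaled together across both tables. Olfm4 and Lgr5 peak on day 3, Defa24 and Chga are highest on day 6, and Ly6a falls to 4.11 CPM or less on day 6.

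AA and PGE2 organoids passed through the same days with their own day 1 libraries, so their changes with time share no library with the vehicle change. In vehicle, 2943 genes rose and 3039 fell, against 2856 (19.2%) that rose and 2563 (17.3%) that fell in AA, and 3638 (24.5%) that rose and 3415 (23.0%) that fell in PGE2. Of the vehicle risers 1370 also rose in AA, 46.6% of the vehicle set and 48.0% of the AA set, and 1467 also rose in PGE2, 49.8% of the vehicle set and 40.3% of the PGE2 set. The change with time itself differed between vehicle and AA for 2668 genes (18%) and between vehicle and PGE2 for 3592 genes (24.2%), by the test of the interaction. Across all tested genes, which are not independent, the vehicle change correlated with that in AA (Pearson r = 0.488) and with that in PGE2 (r = 0.412).

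Lgr5 and Olfm4 rose in all 3 arms. Lgr5 changed by 2.36 in vehicle, 2.54 in AA and 2.04 in PGE2 on the log2 scale, and Olfm4 by 3.65, 3.29 and 3.48 in the same order. The interaction did not pass the test for Lgr5 (vehicle minus AA -0.18 ± 0.16, vehicle minus PGE2 0.33 ± 0.20) or Olfm4 (0.36 ± 0.14 and 0.17 ± 0.20), which does not show that the arms were equal. Igfbp4, of the same list, changed by 1.37 in vehicle, 0.43 in AA and -1.85 in PGE2. Levels differed in size, without a test here: Lgr5 averaged 137 CPM on day 3 and 26.6 CPM on day 1 in vehicle, 40.5 CPM on day 3 and 6.91 CPM on day 1 in AA, and 16.0 CPM on day 3 and 3.81 CPM on day 1 in PGE2. Secretory genes differed among themselves. Lyz1 changed by 1.87 in vehicle, 1.12 in AA and 0.46 in PGE2, and Chga by 1.89 in vehicle, -0.16 in AA and -0.48 in PGE2, with interactions past the test. The goblet list had a median change of 0.65 in vehicle, 0.67 in AA and 0.94 in PGE2. Muc2 changed by 0.96 in vehicle, -0.08 in AA and 0.94 in PGE2, and Atoh1 by 0.27 in vehicle, 0.76 in AA and 0.69 in PGE2, with no interaction past the test. Neurog3 changed by -0.22 in vehicle, 0.16 in AA and 1.49 in PGE2, and differed from PGE2 (adjusted p = 2.52e-05). The enterocyte gene Alpi went the other way, at -0.65 in vehicle, 0.64 in AA and 0.95 in PGE2. The glycolysis and hypoxia list had a median change of 0.84 in vehicle, 1.20 in AA and 0.41 in PGE2. Slc16a3 differed from PGE2 (vehicle minus PGE2 3.09, adjusted p = 0.00061) but not past the threshold from AA (0.73, adjusted p = 0.39), and Pfkfb3 differed from both (2.28 from PGE2 and 0.95 from AA).

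**Figure D5:**
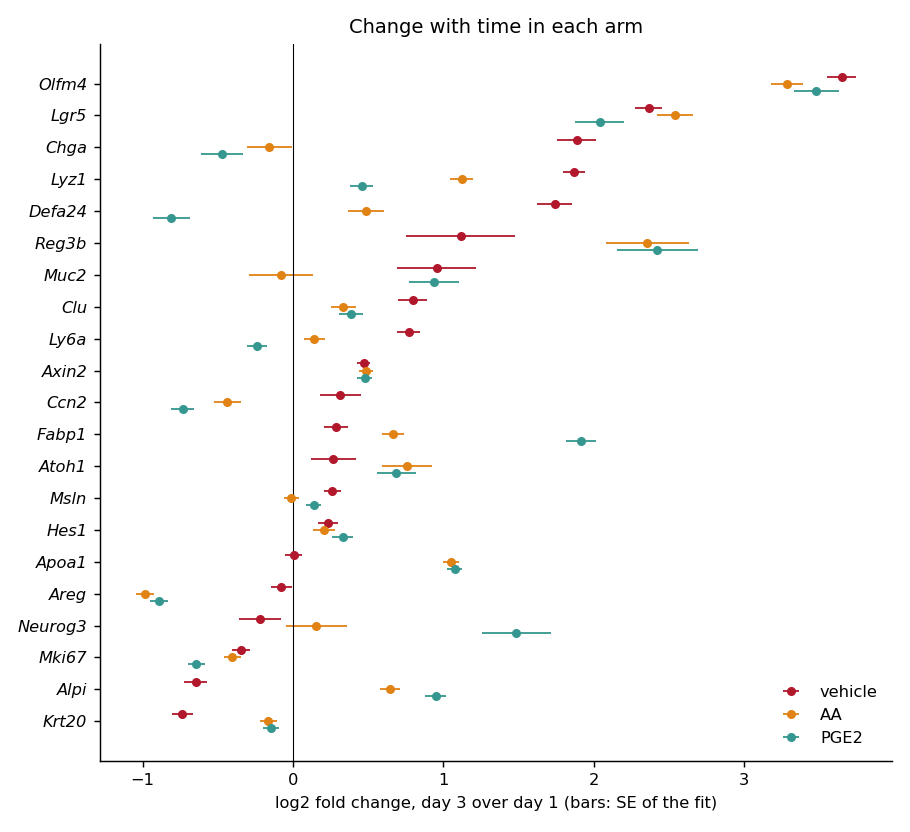
Log2 fold change, day 3 over day 1, of 21 panel genes in vehicle, AA and PGE2 organoids (points; bars are the SE of the fit). Olfm4 and Lgr5 lie together in all arms, while Chga, Lyz1 and Defa24 lie furthest right in vehicle and Alpi lies left of 0 in vehicle and right of 0 in AA and PGE2.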

How the data were processed

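RNA from mouse organoids was taken up in Trizol and made into directional NEBNext Ultra II libraries, as per the labels' protocols. The values are raw read counts per gene, as the authors deposited them; STAR, cutadapt, limma 3.46 and DESeq2 appear, with no role given, as does GRCh38.p6, a human build beside mouse identifiers, per the submitters' processing notes. Not given in the sources used here are the program that counted, its strand option and the annotation, so antisense and overlapping genes are uncertain; 99.6% of 55385 identifiers matched a gene name. 4 columns of other libraries were not used here.

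The 18 libraries of days 1 and 3 (6 groups of 3) were fitted in 1 model with edgeR 4.0.16 in R 4.3.3 (filterByExpr, TMM, robust quasi-likelihood F test), with Benjamini-Hochberg adjustment over all 14850 genes, a threshold of 0.05 and group means only. TMM factors were 1.03 to 1.05 on day 3 and 0.993 to 1.01 on day 1. The procedure was tested on simulated counts. Members, 43 gene lists and 24 families were chosen with earlier results of these data known. Genes named were the 15 highest and 15 lowest past the test (mean log2 CPM of at least 1, no overlap, no predicted names), up to 6 per list and 3 per family by smallest p, the 10 with the largest levels and a panel of 24; the report marks each other gene, and some genes are not reported here. Genes under the filter have no call. Alternatives were other scalings (RLE, total counts, without rRNA-like and mitochondrial genes), other filters, DESeq2 1.42.0, the vehicle libraries alone, a replicate block and leaving out each library. Intervals and SE cover the spread between libraries.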

Additional observations from a re-analysis of the deposited data

Results flagged for a closer look

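Of the 24 panel genes, Dclk1 did not pass the filter and was not tested. Among the others, the change between day 1 and day 3 differed between vehicle and AA organoids in 13. Between vehicle and PGE2 organoids it differed in 15, both by the interaction test over all genes. As the vehicle change minus the AA change on the log2 scale, values above 0 were 0.75 for Lyz1, 1.26 for Defa24, 2.04 for Chga, 0.46 for Clu, 0.63 for Ly6a, 0.27 for Msln, 0.91 for Areg, 0.75 for Ccn2 and 3.48 for Ankrd1. Values below 0 were -1.29 for Alpi, -0.57 for Krt20, -1.05 for Apoa1 and -0.38 for Fabp1. As the vehicle change minus the PGE2 change on the log2 scale, values above 0 were 0.30 for Mki67, 1.41 for Lyz1, 2.55 for Defa24, 2.36 for Chga, 0.41 for Clu, 1.01 for Ly6a, 0.81 for Areg, 1.05 for Ccn2 and 3.40 for Ankrd1. Values below 0 were -1.71 for Neurog3, -1.60 for Alpi, -0.59 for Krt20, -1.07 for Apoa1, -1.63 for Fabp1 and -1.31 for Reg3b. Ankrd1 rests on 39 reads over the day 3 vehicle libraries and 3 reads over the day 1 vehicle libraries, so its fitted values have no firm size. Reg3b averaged 1.6 CPM on day 3 and 0.737 CPM on day 1 in vehicle and is likewise scarce.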

How the results depend on the processing

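The counts of called genes in vehicle stayed within 1.5 times of the main values in the alternatives run, except for the counts of genes changed at least 2-fold. These were 725 higher and 43 lower in the main fit, 312 and 14 under the stricter filter, which tests fewer scarce genes, and 160 and 5 when glmTreat tested against a log2 change of 1, which asks for more than an estimate past 2-fold. Total calls were 4925 with the 6 vehicle libraries alone, 5132 with DESeq2, 5768 with total counts and 4973 to 5829 when 1 library was left out; 79.3 to 89.6% of the main calls remained in those leave-one-out fits, and 0 changed direction. Day 3 replicate 2 decided the TEC models and moved histones and cytosolic ribosomal proteins; the cause was not tested. Equal replicate numbers did not pair the days: correlations of same-numbered vehicle libraries were -0.07, 0.11 and 0.14, and a replicate block gave 6140 calls. The block gave 5560 calls for AA and 7155 for PGE2 over time, and 2817 and 3745 for the differences from vehicle. No named gene changed sign while called. Values under 1 CPM rest on few reads and were limited by depth.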
